A study of Arabidopsis thaliana with 12 samples.

Results

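SWEET genes encode membrane proteins that let sugars pass down their own gradient, out of or into a cell or its vacuole. In Arabidopsis, members close to SWEET1 and SWEET7 mainly carry hexoses, SWEET9 to SWEET15 mainly carry sucrose, and SWEET16 and SWEET17 act at the vacuole membrane. The family is known in seed for moving sucrose from the seed coat towards the embryo during filling, a task shared by SWEET11, SWEET12 and SWEET15. The transcripts described here are those of the 8 SWEET probe sets that had exactly 1 gene symbol of the form SWEET plus a number and a mean log2 signal over 12 arrays at or above the 40th percentile of all 22746 non-control probe sets. They came from 14 probe sets with such a symbol, of which 6 lay below that threshold, and from 13648 probe sets tested in all.

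The study asked how the mother plant's surroundings and genotype bear on seed dormancy, and measured RNA of ripe seed on Affymetrix ATH1 arrays, 1 sample per array. All plants have the Landsberg erecta (Ler) background. The reference was wild type Ler kept at 20 °C in 16 h days (3 arrays). A second group of wild type Ler was grown like the reference until flowering and then held at 10 °C in 16 h days while seed ripened (3 arrays). Another was wild type Ler at 20 °C in 8 h days (3 arrays). Seed of the mutant group carried ft-1, a mutant allele of the flowering gene FT, and grew under the reference conditions (3 arrays). Its source name in the labels reads Glabra although genotype and title give ft-1, so "ft-1" means the arrays labelled so. FT itself was not analysed here, so the genotype label was not checked. Whether replicates are different plants is not said in the labels, so each p-value reflects array-to-array spread that could be technical.

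The seed label was checked against storage genes. The vicilin-like gene PAP85 had a mean of 13.25 and the oleosin gene OLEO3 one of 10.52 on the log2 scale over the 12 arrays. Summed signals ran from 4214462 to 4398243 per array at 10 °C and from 3564488 to 3926529 on all other arrays. Hybridisation controls had mean log2 signals of 9.90 to 10.06 at 10 °C and of 9.13 to 9.71 on all other arrays. Arrays of 1 group correlated at r = 0.915 to 0.969 across genes. The lowest of these correlations lay in the ft-1 group, whose array 2 stood apart. Poly-A control RNAs, added before labelling, had mean log2 signals of 8.12 to 8.85 in the 10 °C group, 6.51 to 6.99 in the reference, 7.68 to 7.74 in short days and 5.65 to 7.87 in ft-1. The difference of 1.76 between the 10 °C group and the reference had p = 0.1 in an exact two-sided permutation test, the smallest that this number of arrays can give. A GAPDH control read at its 3′ and 5′ ends, a sign of RNA integrity, had a 3′ excess that was higher at 10 °C by 1.06 with the AFFX-Athal probe sets and lower by -0.36 with the AFFX-r2 probe sets (log2, each exact permutation p = 0.1).

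No table of sequences for these genes was used here, and none is printed. The loci of the 8 members, by RefSeq gene identifier, are AT1G21460 for SWEET1, AT5G53190 for SWEET3, AT1G66770 for SWEET6, AT4G10850 for SWEET7, AT5G50790 for SWEET10, AT4G25010 for SWEET14, AT3G16690 for SWEET16 and AT4G15920 for SWEET17. Chromosome 1 holds SWEET1 and SWEET6, chromosome 3 SWEET16, chromosome 4 SWEET7, SWEET14 and SWEET17, and chromosome 5 SWEET3 and SWEET10. In RefSeq gene order SWEET10 lies directly beside SWEET13, which was below the threshold.

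The members fell into a bright and a dim set. SWEET6 and SWEET1 had mean log2 signals of 9.08 and 8.57, at the 93.8th and 91.4th percentile of all probe sets. SWEET7 had a mean of 3.66, which joins a bright 10 °C group to 3 dim groups. SWEET3 (3.46), SWEET16 (3.20), SWEET17 (3.13), SWEET14 (2.90) and SWEET10 (2.90) lay little above the lowest mean tested, 2.88. SWEET14 and SWEET10 were the members just inside the threshold, and SWEET9 at 2.45 was the one just outside it. Signals of different probe sets depend on the probes, so these means say where a probe set lies on the array's scale and not how much transcript 1 gene has against another.

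**Figure D1:**
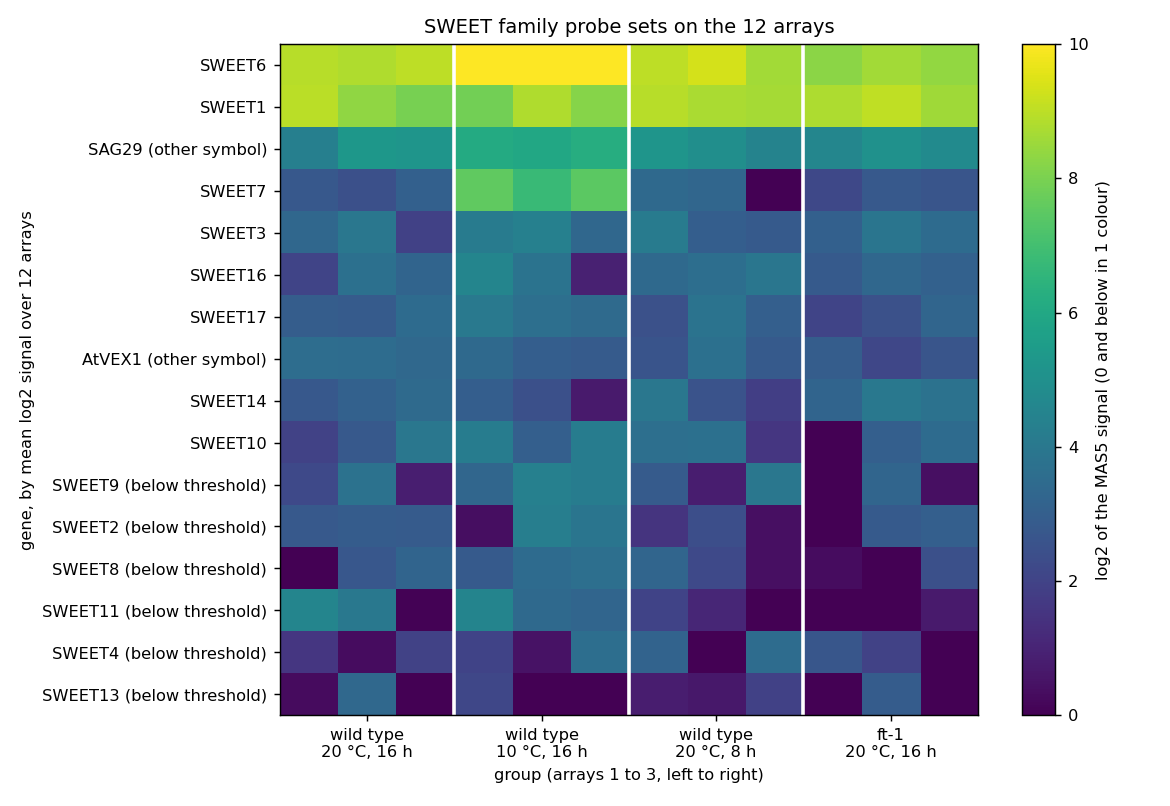
Log2 of the MAS5 signal (colour, from 0 to 10) of the 16 probe sets of SWEET family genes (vertical axis, ordered by mean) on 12 arrays in 4 groups of 3 (horizontal axis). SWEET6 and SWEET1 are bright on every array, SWEET7 is bright on the 10 °C arrays only, and most other genes lie near the dark end.

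SWEET7 and SWEET6 were higher in seed that ripened at 10 °C than in the reference. SWEET6 was 2.13-fold higher. For SWEET7 the fitted fold was 23.0, but its reference signals were so low that the size depends on how low signals are treated (a log2 difference of 4.52, or of 2.91 with 16 added to each signal). No member was lower there past the test, and the strongly detected SWEET1 did not pass. Over all probe sets 11.3% were called higher and 20.5% lower in that comparison. In short days and in ft-1 no member passed, where only 1.78% and 0.388% of all probe sets were called. In bulk seed RNA, more cells of a type and more transcript per cell cannot be told apart. Differences were fitted with limma across all 13648 probe sets and called at an adjusted p under 0.05 (Benjamini-Hochberg). They are relative to each array's trimmed mean signal, to which the authors scaled.

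SWEET7, whose protein carried glucose and xylose in yeast assays, had MAS5 signals of 6.72, 5.43 and 8.37 on the reference arrays and 190.5, 110.5 and 176.8 on the 10 °C arrays. In short days it had 10.6, 9.85 and 0.717, and in ft-1 4.46, 6.90 and 6.24. The 3 signals at 10 °C lay above all 9 others, and the other 3 groups overlapped one another. The 10 °C mean was 159 ± 42.8 (SD, n = 3) and the reference mean 6.84 ± 1.47 (SD, n = 3). The log2 difference was 4.52 (SE 0.78, limma adjusted p = 0.0013), a fold of 23.0 with a 95% interval of 7.21 to 73.4.

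Against short days SWEET7 was higher at 10 °C by 5.20 (SE 0.78, limma adjusted p = 0.00079), and ft-1 was lower than 10 °C by -4.75 (SE 0.78, limma adjusted p = 0.0011). These contrasts reuse the same 10 °C arrays. SWEET7 passed the signal threshold through its 10 °C arrays, since its mean log2 signal over the other 9 was 2.45. Without any threshold its difference from the reference had an adjusted p = 0.0015. The size is uncertain because the reference signals lie near the noise of MAS5: with 16 added to each signal before the logarithm the difference was 2.91 (adjusted p = 6.0e-07). Short-day array 3, at 0.717, widened the shared spread, and without it the SE fell from 0.78 to 0.37 (adjusted p = 1.5e-05). That fit is 1 of 12 that each left out 1 array. Across these the difference from the reference ran from 4.37 to 4.77, and the limma adjusted p reached 0.0093.

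SWEET6 had signals of 491, 446 and 510 in the reference and of 1033, 1036 and 1009 at 10 °C. In short days it had 512, 653 and 388, and in ft-1 304, 388 and 332. The 10 °C arrays lay above all other arrays, and the ft-1 arrays lay below the reference arrays without overlap. The reference mean was 482 ± 32.6 (SD, n = 3), and the 10 °C mean was 1026 ± 14.4 (SD, n = 3). The log2 difference was 1.09 (SE 0.19, limma adjusted p = 0.0013), a fold of 2.13 with a 95% interval of 1.61 to 2.82. The order of the 4 group means was 10 °C, short days, reference and ft-1. Of neighbours in this order, 10 °C and short days differed (1.02, SE 0.19, limma adjusted p = 0.0031), short days and reference did not pass (0.07, 95% interval -0.33 to 0.48, limma adjusted p = 0.89), and ft-1 and reference did not pass (-0.50, 95% interval -0.91 to -0.10, limma adjusted p = 0.28). Without ft-1 array 2, ft-1 gave -0.60 (adjusted p = 0.20) against the reference and -0.67 (adjusted p = 0.061) against short days. Leaving out other arrays also moved these values. Over all fits without 1 array, ft-1 against the reference ran from -0.60 to -0.42, with a limma adjusted p up to 0.53. Against short days it ran from -0.77 to -0.39, with a limma adjusted p up to 0.9998. Between its ends, ft-1 was below 10 °C by -1.59 (SE 0.19, limma adjusted p = 0.00010).

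With the poly-A control level as a covariate SWEET7 gave 4.16 (adjusted p = 0.073) and SWEET6 0.90 (adjusted p = 0.077) at 10 °C against the reference, so neither call held. The SWEET7 call between ft-1 and 10 °C was lost too (-4.32, adjusted p = 0.068). That level was 8.12 or more on every 10 °C array and 7.87 or less on every other array. The poly-A level and the 10 °C group can therefore not be fully told apart in this design. The part of the poly-A level in these results was not tested further. Scaling on hybridisation controls moved SWEET6 to 0.41 (adjusted p = 0.18) and SWEET7 to 3.84 (adjusted p = 0.00055). It also moved SWEET6 between 10 °C and short days to 0.62 (adjusted p = 0.067), which ended that call. That scaling moved the median of all tested probe sets from -0.16 to -0.85. A scaling moves every probe set of an array alike, so the distance from that median (1.25 for SWEET6 and 4.69 for SWEET7) is the same under either one by construction.

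**Figure D2:**
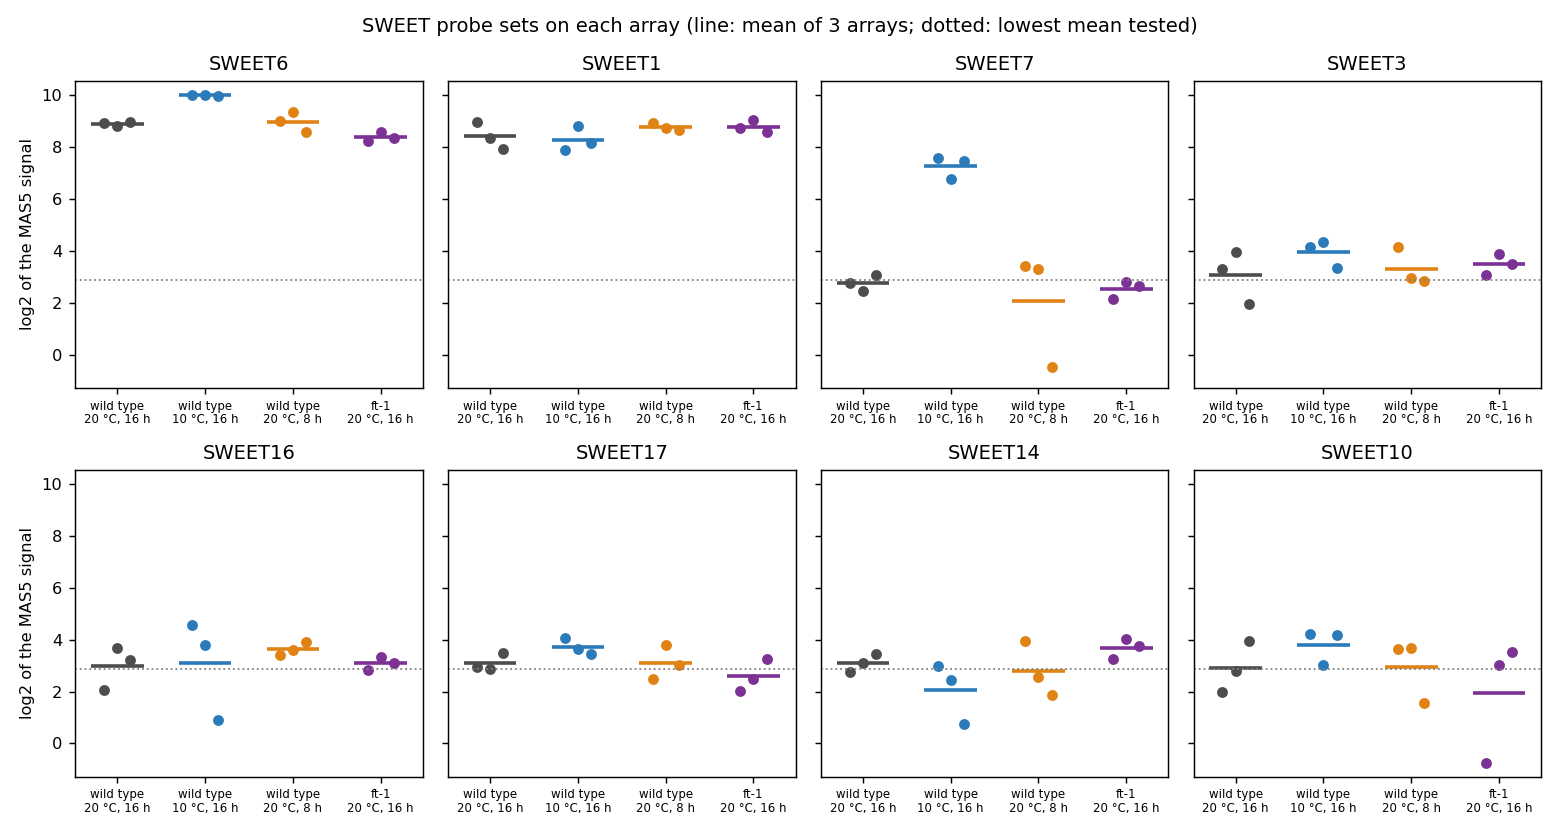
Log2 of the MAS5 signal of the 8 members (vertical axes) on each array, by group (horizontal axes). Points are arrays, bars are means of 3 arrays, and the dotted line is the lowest mean tested, 2.88. SWEET7 at 10 °C lies between 110.5 and 190.5 in signal, above its 9 other arrays, and SWEET6 at 10 °C lies at 1009 or more on each array.

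SWEET1, a glucose carrier of the plasma membrane, had signals of 500, 324 and 247 in the reference and 236, 446 and 288 at 10 °C. Short-day seed had 492, 424 and 405, and ft-1 seed 433, 532 and 382. The 4 groups all overlapped one another. The log2 differences from the reference were -0.13 at 10 °C (95% interval -0.71 to 0.44), 0.36 in short days (-0.21 to 0.93) and 0.38 in ft-1 (-0.20 to 0.95). The limma adjusted p-values were 0.74, 0.52 and 0.61. The sign at 10 °C depended on the scaling, with 0.22 after centring on the array median and -0.82 (adjusted p = 0.041) with scaling on hybridisation controls.

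SWEET16 and SWEET17 are sugar carriers of the vacuole membrane, and SWEET17 is known for fructose. SWEET17 had signals of 7.78, 7.25 and 11.2 in the reference, 16.7, 12.5 and 11.0 at 10 °C, 5.56, 14.0 and 8.24 in short days and 4.09, 5.61 and 9.56 in ft-1. The 10 °C arrays overlapped the reference narrowly and lay above all ft-1 arrays. The difference from the reference was 0.62 (95% interval -0.57 to 1.80), and ft-1 against 10 °C gave -1.13 (limma adjusted p = 0.15). SWEET16 ranged from 1.87 to 23.4 within the 10 °C group alone, which covers its signals in each other group.

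SWEET10 and SWEET14 carry sucrose. SWEET10 is known to respond to the flowering signal that ft-1 plants lack in part, and SWEET14 acts in anthers together with SWEET13. SWEET10 had signals of 3.96, 6.88 and 15.5 in the reference and 0.599, 8.10 and 11.4 in ft-1. The groups overlapped, with a difference of -0.98 (95% interval -3.13 to 1.18, limma adjusted p = 0.74). At 10 °C SWEET10 had 18.6, 8.22 and 18.2, a difference of 0.91 (-1.25 to 3.06). SWEET14 had 6.79, 8.59 and 10.8 in the reference, 7.93, 5.45 and 1.66 at 10 °C, 15.4, 5.84 and 3.66 in short days and 9.46, 16.2 and 13.5 in ft-1. Its ft-1 arrays lay above all 10 °C arrays (1.61, SE 0.72, limma adjusted p = 0.11). SWEET3 ranged from 3.87 to 20.4 over all arrays and gave 0.87 (95% interval -0.38 to 2.12) at 10 °C. For these 5 dim members the 95% intervals at 10 °C had lower bounds of -2.58 to -0.38 and upper bounds of 0.49 to 3.06. Each interval gives the changes that the data leave possible for that gene and is not a limit of detection.

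Of the 8 members, 2 rose and 0 fell at 10 °C against the reference, where 31.9% of all probe sets were called, 11.3% as higher and 20.5% as lower. SWEET6 and SWEET7 were also the 2 members whose groups did not overlap, against 48.0% of all probe sets. SWEET7 and SWEET10, with mean log2 signals of 2.45 and 2.60 over the 9 other arrays, passed the threshold of 2.88 only through the 10 °C arrays. The count, the overlap and the member median of 0.74 (beside -0.16 over all tested probe sets) are therefore partly set by the threshold and describe these members only.

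In short days against the reference limma called 0 of 8 members, with 0 at an unadjusted p under 0.05. The background was 1.78% called, 0.725% higher and 1.06% lower. No member had groups without overlap, against 30.3% of all probe sets. In ft-1 against the reference limma called 0 of 8, with 1, SWEET6, at an unadjusted p under 0.05. The background was 0.388% called, 0.249% higher and 0.139% lower, and SWEET6 was the 1 member without overlap, against 18.0%. The member medians were 0.06 in short days and -0.06 in ft-1, beside -0.06 over all probe sets in each.

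The 3 other contrasts use the same arrays again. Between 10 °C and short days 2 of 8 members were called, both higher at 10 °C and both without overlap. The background there was 17.5% called, 7.26% higher, 10.2% lower and 39.9% without overlap. Between ft-1 and 10 °C 2 of 8 were called, both lower in ft-1, with a background of 24.0% called, 14.6% higher and 9.36% lower. Groups did not overlap in 4 of 8 (SWEET6, SWEET7, SWEET14 and SWEET17), against 33.4%. The called members were SWEET6 and SWEET7 each time. SWEET7 and SWEET10 passed the threshold only through the 10 °C arrays. The counts of called and of non-overlapping members in both contrasts with 10 °C are therefore partly set by the threshold. Between ft-1 and short days limma called 0 of 8, with 1, SWEET6, at an unadjusted p under 0.05 (difference -0.58, adjusted p = 0.44). The background was 0.176% called, 0.147% higher and 0.0293% lower, and SWEET16 was the 1 member without overlap, against 11.1%. Counts of called members in these contrasts were the same with ft-1 array 2 left out.

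**Figure D3:**
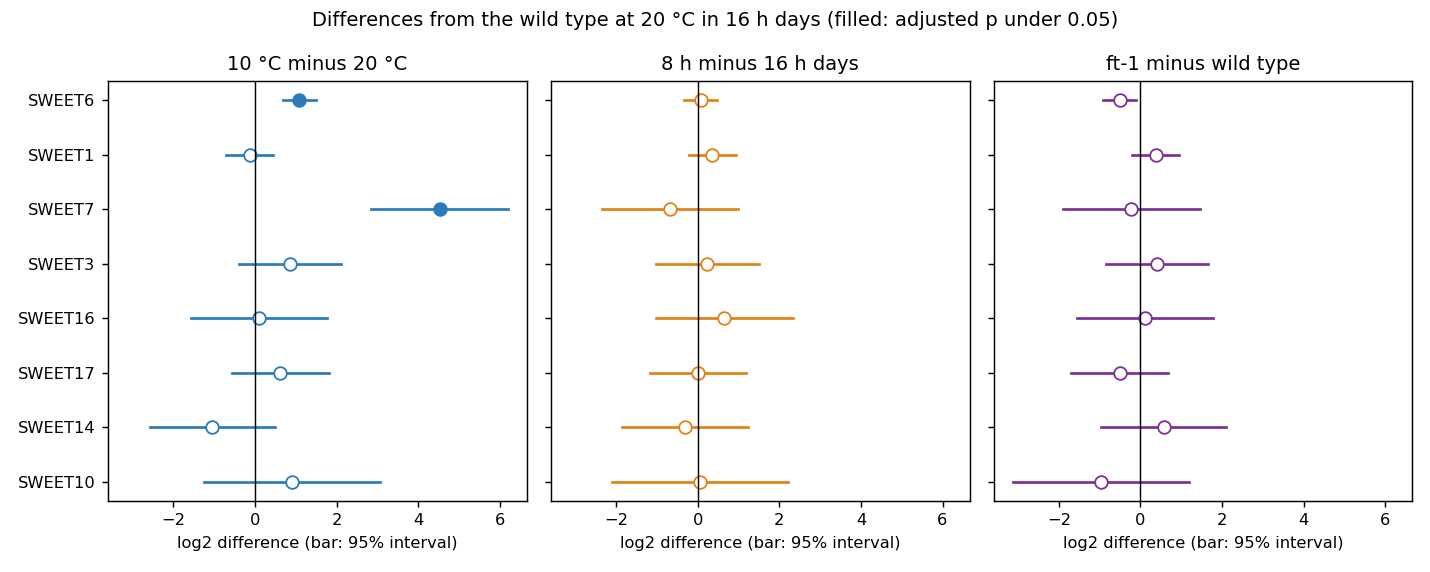
Log2 difference from the reference (horizontal axes, with 95% intervals) of the 8 members (vertical axis) in 10 °C, short-day and ft-1 seed. Filled points passed an adjusted p under 0.05: SWEET7 at 4.52 and SWEET6 at 1.09, both at 10 °C.

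A pair of family members is listed under older symbols and so lies outside the rule. SAG29, which is SWEET15 in RefSeq's synonyms, is a sucrose carrier first named for its rise in ageing leaves and known to act in seed filling. Its signals were 19.8, 39.2 and 37.5 in the reference, 69.3, 63.8 and 75.2 at 10 °C, 36.7, 31.1 and 22.1 in short days and 23.9, 33.3 and 27.4 in ft-1. The 10 °C arrays lay above all others. SAG29 was higher at 10 °C by 1.17 (SE 0.30, limma adjusted p = 0.010), or 2.25-fold, but gave 0.85 (adjusted p = 0.053) without reference array 1, 0.93 (adjusted p = 0.29) with the poly-A covariate and 0.49 (adjusted p = 0.22) with scaling on hybridisation controls. AtVEX1, or SWEET5, is named for the vegetative cell of pollen. Its signals were 10.5 to 11.9 in the reference, 7.40 to 10.8 at 10 °C, 6.04 to 12.9 in short days and 4.37 to 7.81 in ft-1. The ft-1 arrays lay below the reference arrays without overlap (-0.91, limma adjusted p = 0.52), and AtVEX1 passed in no comparison.

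The 6 SWEET probe sets under the threshold were not tested. SWEET11, which exports sucrose from the seed coat, had group mean log2 signals of 2.87 in the reference, 3.73 at 10 °C, 0.92 in short days and -0.33 in ft-1, with reference signals from 1.03 to 23.5. SWEET9, the nectary sucrose carrier, had 2.28, 3.95, 2.54 and 1.04 in the same order, and SWEET8, a pollen wall gene, 1.93, 3.33, 1.96 and 0.85. SWEET2, a vacuolar carrier of roots, had 2.85, 2.85, 1.43 and 1.11. SWEET4, a hexose carrier, had 1.29, 2.04, 2.12 and 1.49, and SWEET13 had 0.84, 0.06, 1.12 and 0.56. SDs within a group reached 3.16 among these genes, and no order between groups was read from them. SWEET12 had no probe set with its symbol in the annotation and was not analysed here.

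The probe sets most like each called member over the 12 arrays, among 7577 tested ones with 1 gene, were found by Pearson's r of log2 signals. For SWEET6 they were AT4G36530 (r = 0.958), the defensin-like gene LCR68 (r = 0.957) and the light-harvesting gene LHCB4.3 (r = 0.955). For SWEET7 they were AT2G15580 (r = 0.962), AT3G48570 (r = 0.958) and AT2G17710 (r = 0.952). The 3 arrays from 10 °C stand apart from the other 9 in both members, so these values mainly reflect that split. LHCB4.3 had group mean log2 signals of 5.55 in the reference, 8.12 at 10 °C, 5.86 in short days and 4.98 in ft-1, the same order as SWEET6 with the reference and short days close together.

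Genes of sugar handling outside the family were mostly without a named probe set in the annotation used. That annotation gave 8730 probe sets no gene, so the array may hold probes for more of these genes. Most lists were thus without a member to test. No named probe set was found for 9 of 9 sucrose transporter genes, 22 of 22 plasma membrane hexose, polyol and inositol carriers, 10 of 10 hexose and fructose kinase genes and 17 of 17 raffinose family genes. Of the 16 invertase genes and of the 11 genes of sucrose synthesis and cleavage, 1 each had a named probe set, below the threshold. Of 14 vacuolar and plastid carriers 3 were tested, of which 1 rose and 0 fell at 10 °C and none passed in short days or ft-1 (limma, 0 at an adjusted p under 0.05). Over all probe sets 31.9% were called at 10 °C. SFP1, a monosaccharide carrier gene of the ERD6-like family, rose by 1.71 (SE 0.48, limma adjusted p = 0.015) at 10 °C. TMT1 and TMT2, which load sugars into the vacuole, gave -0.01 (SE 0.31) and -0.64 (SE 0.30, limma adjusted p = 0.12).

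Marker genes of other tissues were summed per array. Only genes with a named probe set in the annotation used could be counted. Of 39 genes of green tissue 8 had one, with a summed signal of 1342 to 1559 at 10 °C, 871 to 1388 in the reference, 903 to 1036 in short days and 680 to 925 in ft-1. Of the 7 tested, 3 rose and 2 fell at 10 °C, beside 11.3% higher and 20.5% lower over all probe sets. For pollen 5 of 35 genes had a named probe set, with sums of 78.2 to 79.5 at 10 °C, 19.1 to 57.9 in the reference, 98.2 to 117 in short days and 42.7 to 192 in ft-1. Of the 3 tested pollen genes RALFL25 (3.36) and RALFL26 (3.06) rose and MGH3 (-1.44) fell at 10 °C against the reference. RALFL25 and RALFL26 were also above the reference in short days (2.93 and 3.67, limma adjusted p = 0.071 and 0.041). In ft-1 they gave 3.15 and 3.18 (limma adjusted p = 0.091 and 0.12). MGH3 gave 0.43 in short days and -0.31 in ft-1 and was not called there. For seed coat it was 2 of 21 genes, with 23.3 to 34.7 at 10 °C and 10.3 to 23.7 in the reference, and none was tested. For endosperm it was 4 of 17, with 11.2 to 33.1 and 14.1 to 24.6, and the 1 tested gene was not called. For embryo storage and oil bodies it was 2 of 25, PAP85 and OLEO3. They summed to 14300 to 14801 at 10 °C, 8034 to 11100 in the reference, 10919 to 12690 in short days and 9208 to 11686 in ft-1. At 10 °C against the reference PAP85 was called (0.68, limma adjusted p = 0.0041) and OLEO3 was not (0.48, limma adjusted p = 0.12). MAS5 lists no signal of 0, and no marker of these lists was at 0. The part of these tissues in the SWEET differences was not tested.

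**Figure D4:**
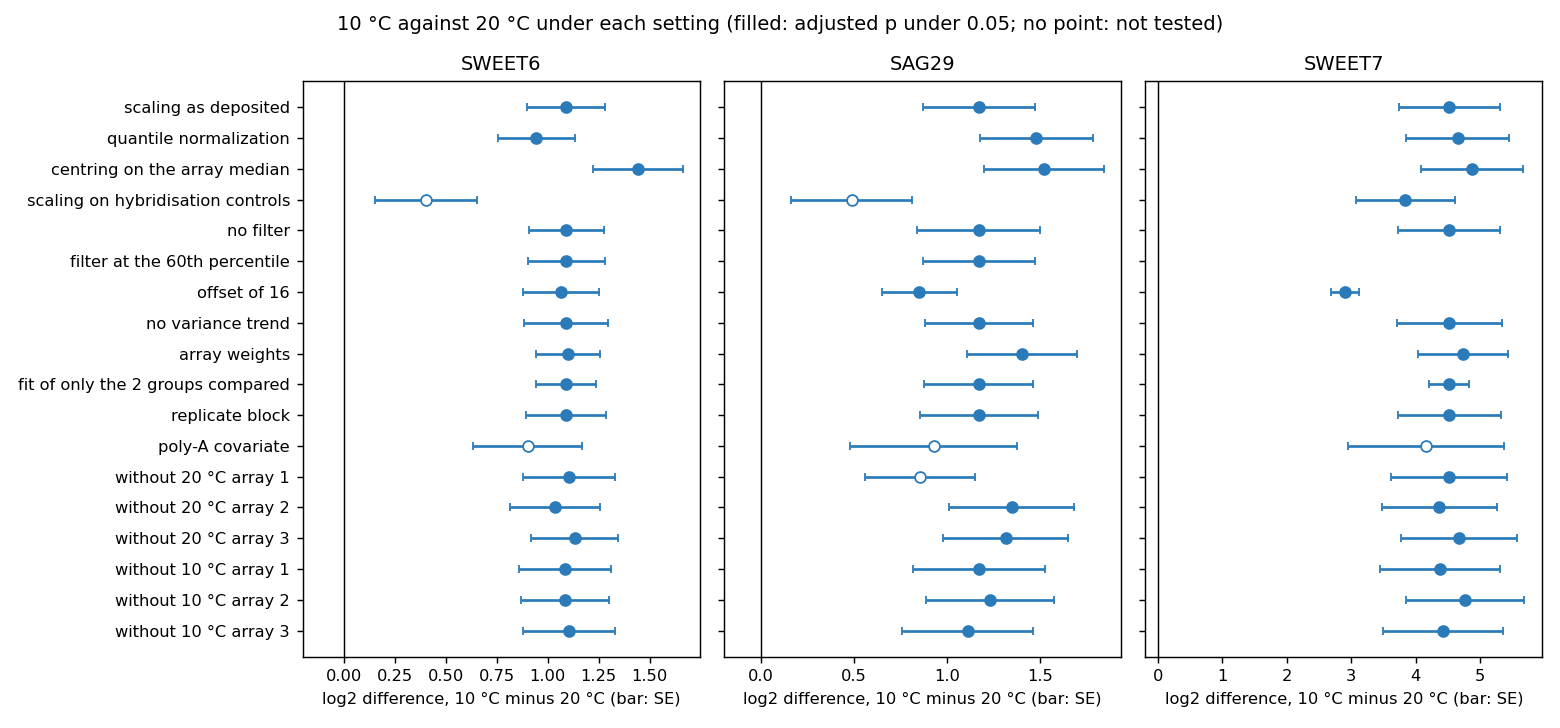
Log2 difference between 10 °C and the reference (horizontal axes, bars show the SE) for SWEET6, SAG29 and SWEET7 under each setting (vertical axis); filled points passed an adjusted p under 0.05. SWEET6 stays between 0.41 and 1.44 and SWEET7 between 2.91 and 4.88; Open points are SWEET6 and SAG29 with scaling on hybridisation controls, all 3 genes with the poly-A covariate, and SAG29 without 20 °C array 1 (the reference).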

How the data were processed

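The authors deposited a linear intensity for each probe set and array. Per the submitters' processing notes, MAS5 and GCOS were used, with no version named. Trimmed by 2% at each end, every array averaged 100.0, so a change in total messenger RNA cannot be seen. Of 22810 probe sets, 64 AFFX controls stayed out of tests. Signals were log2-transformed with the scaling kept, and the 13648 probe sets at or above the 40th percentile of mean log2 signal went into limma 3.58.1 (R 4.3.3). One model with 4 group means over 12 arrays used an intensity-dependent variance prior, and two-sided p-values were adjusted by Benjamini-Hochberg within each of 6 comparisons. Detection calls were not used here. The platform annotation gave 13513 probe sets 1 gene, 503 several and 8730 none, and 13436 had a locus in RefSeq's TAIR10.1 table, from which only names and gene order were taken. All SWEET probe sets are named. For each called member the 3 most correlated single-gene probe sets are named, and from each sugar list up to 4 genes by smallest adjusted p. Members and lists were chosen with earlier results of these data known. Alternatives covered scaling, filters, an offset, the variance prior, array weights, the samples fitted, a replicate block, a poly-A covariate and each array left out. The number of arrays limits the precision.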

Additional observations from a re-analysis of the deposited data

How the results depend on the processing

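The count of called SWEET probe sets at 10 °C against the reference was 2, and 2 in each of the 12 fits without 1 array. It was 0 with the poly-A covariate and 1 with the filter at the 60th percentile, which left SWEET6 and SWEET1 as tested members. That filter also gave 1 for 10 °C against short days and 1 for ft-1 against 10 °C. For ft-1 against 10 °C, where the count was 2, the poly-A covariate gave 1, scaling on hybridisation controls 4 and array weights 4, and leaving out arrays gave 2 to 3. Array weights gave 3 for 10 °C against short days, 1 for ft-1 against the reference and 1 for ft-1 against short days. The last pair is SWEET6, at -0.60 (adjusted p = 0.0089) and -0.69 (adjusted p = 0.0047). Array weights gave ft-1 array 2 the lowest weight, 0.186. With scaling on hybridisation controls the 2 calls at 10 °C against the reference were SWEET7, higher, and SWEET1, lower, in place of SWEET6. The cause of these changes was not tested, apart from the stricter filter. With the replicate block the count was 2, 0 and 0 in the 3 comparisons with the reference, and SWEET6 and SWEET7 kept an adjusted p of 0.0034 and 0.0032. Deviations of same-numbered arrays correlated at -0.23 to 0.14 over 18 pairs. The 2 over 0.1 (0.14 and 0.12) were both between the reference and ft-1. No strong shift shared by number was seen, but this cannot show whether samples of a number were handled together. Over all 1068 alternative values of the members no called value changed sign, 5 calls were lost and 10 gained, and 58 values not called in either setting changed sign. Signals near the lowest mean tested limit what can be said of the 5 dim members.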

Other observations

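Genes beside the called members in RefSeq's order were looked up to see what lies next to them. Next to SWEET6, AT1G66760 gave -0.44 at 10 °C against the reference (SE 0.39, limma adjusted p = 0.41), and AT1G66780 was below the threshold with a mean log2 signal of 2.58. Next to SWEET7, AT4G10843 gave 0.11 (SE 0.71, limma adjusted p = 0.92), and AT4G10860 on the other side had no named probe set. Of genes directly beside members that did not pass, DI21 next to SWEET17 gave 1.04 (limma adjusted p = 0.015), AT4G15930 on its other side 0.44 (limma adjusted p = 0.38) and AT5G50780 next to SWEET10 -1.41 (limma adjusted p = 0.012). Calls were common in this comparison, at 31.9% of all tested probe sets.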
